A study of Macaca mulatta with 28 samples.

Results

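The blocks described here are 9 dissected blocks of amygdala tissue with the most RNA of TBR1, a transcription factor of glutamatergic projection neurons, set against the 9 blocks with the least, out of 28 blocks in all. They were chosen by the deposited TBR1 value alone, so every difference in gene expression between them is given as a description with no test. Drinking category and cohort, which the choice did not use, were tested. The blocks come from male rhesus macaques (Macaca mulatta) that drank ethanol by choice, 1 block and 1 library per animal. All 28 animals were induced to drink 4% (w/v) ethanol over about 90 days and could then drink freely, 22 hours of each day, for over 12 months, and no animal without ethanol was among them. By intake, the labels class the animals as very heavy drinkers (VHD), heavy drinkers (HD), binge drinkers (BD) and low drinkers (LD), and into cohorts 4, 5, 7a and 7b. The mean age of a cohort at the end of drinking was 9.98 years in cohort 4, 7.15 in cohort 5, 5.70 in cohort 7a and 7.18 in cohort 7b. Each block was cut around the central nucleus of the amygdala by visible landmarks, so a library holds whatever tissue lay within the cut.

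The amygdala joins parts with different kinds of neurons. The basolateral nuclei resemble cortex and hold glutamatergic projection neurons, which take their identity from transcription factors such as TBR1 and the NEUROD family. The central nucleus resembles the striatum and holds mostly GABAergic neurons, which form under DLX factors and often carry neuropeptides such as enkephalin. The globus pallidus and the cholinergic neurons of the basal forebrain lie close by.

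TBR1 lay on chromosome 2b from 47981126 to 47989803 in the deposited exon table, in 6 exons, and is measured in normalized reads, the reads over a gene's exons scaled to each library's upper quartile. The TBR1-rich blocks held 278 to 694 normalized reads of TBR1 (median 378), against 0 to 63.4 in the TBR1-poor blocks (median 10.2). The 10 blocks ranked between them held 68.1 to 207. At the upper edge, LD replicate 9 (278) was the last block inside the rich group and BD replicate 3 (207) the first outside it. At the lower edge, LD replicate 7 (63.4) was the first block inside the poor group and BD replicate 4 (68.1) the last outside it, so the lower edge fell in a nearly continuous run of values. The fewest normalized reads, 0, stood in HD replicate 4. All 6 exons of TBR1 were higher in the rich blocks, from 26.6 ± 9.77 in the rich and 0.667 ± 0.866 in the poor blocks for exon 5 to 171 ± 62.2 in the rich and 9.22 ± 10.4 in the poor blocks for exon 6 (SD, n = 9 each). As the blocks were ranked by the reads of this gene, that direction was largely set by the choice.

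**Figure D1:**
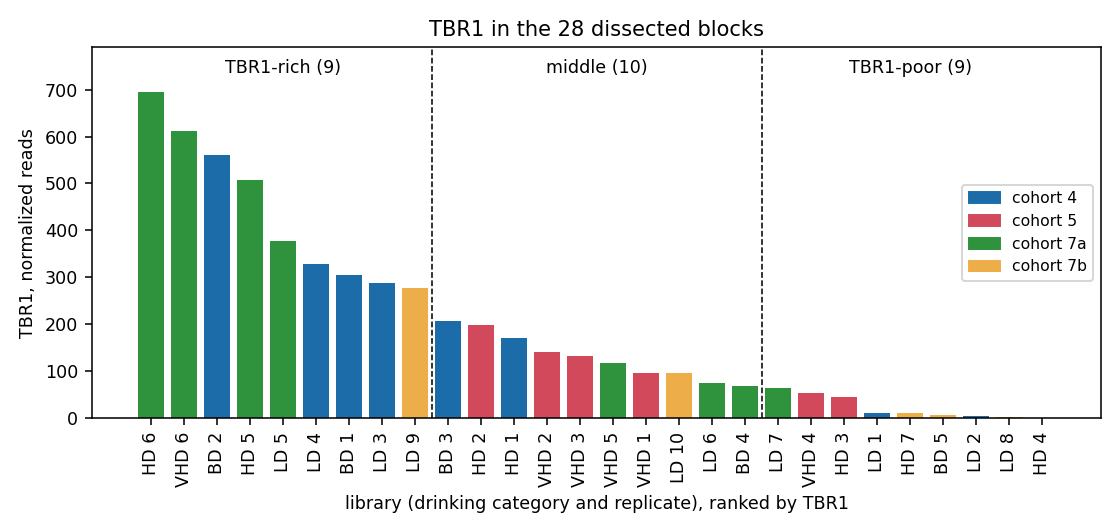
TBR1 in normalized reads (vertical axis) in each of the 28 libraries, ranked from highest to lowest, with bars coloured by cohort and dashed lines at the edges of the 3 groups. The 9 TBR1-rich blocks lie between 278 and 694 and include no animal of cohort 5, and the 9 TBR1-poor blocks lie between 0 and 63.4.

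Reads over gene exons numbered 1910514 to 25928489 per library. The rich blocks had a median of 19107842 reads and the poor blocks a median of 12796988. BD replicate 1, a rich block, was the shallowest of all at 1910514 reads, and its TBR1 value of 305 rests on 38 reads. In the poor libraries 3 reads corresponded to 2.39 to 6.73 normalized reads, so values near these levels carry large counting errors.

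The rich blocks came from 1 VHD, 2 HD, 2 BD and 4 LD animals, and the poor blocks from 1 VHD, 3 HD, 1 BD and 4 LD animals. Grouped as heavy (VHD and HD) or low (BD and LD) drinkers, that was 3 heavy and 6 low animals among the rich and 4 heavy and 5 low among the poor blocks, and the difference did not pass a two-sided Fisher's exact test (p = 1.0). By cohort, the rich blocks held 4 animals of cohort 4, 0 of cohort 5, 4 of cohort 7a and 1 of cohort 7b, while the poor blocks held 2, 3, 1 and 3 (two-sided Fisher's exact test, p = 0.133). Across all 28 libraries TBR1 averaged 214 ± 233 normalized reads in heavy drinkers (n = 13) and 178 ± 171 in low drinkers (n = 15). With cohort as a term, the fitted log2 difference of heavy minus low was 0.86 (95% interval −1.41 to 3.14; limma, adjusted p = 0.998 over all genes), an interval that spans large differences in either direction. TBR1 did not pass the test between cohorts either (limma F test, F = 2.75, adjusted p = 0.509 over all genes). Its medians were 248 in cohort 4, 95.9 in cohort 5, 248 in cohort 7a and 10.2 in cohort 7b. As the adjustment covers all genes, this is no sign that TBR1 was level across cohorts.

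Across the 13021 other genes tested, 426 had all 9 rich values above all 9 poor values (3.27%), and 144 had all rich values below all poor values (1.11%). These counts come from the contrast that chose the blocks, so nothing is read from their size. Centred on cohort means they were 173 higher and 42 lower, and with the 5 highest against the 5 lowest blocks 1460 and 1426. The count of lower genes was 275 without LD replicate 9, 249 without LD replicate 7 and 219 without VHD replicate 4. Of all genes, 348 were over 2-fold higher and 373 over 2-fold lower in the rich blocks by mean log2(normalized reads + 1), and the median difference over all genes was −0.05. Cohort, age and TBR1 cannot be told apart in full here, because cohort 5 entered the poor group only. Differences within cohorts 4, 7a and 7b, which rest on 4 rich and 2 poor, 4 rich and 1 poor, and 1 rich and 3 poor animals, are therefore given beside the main genes. In bulk tissue, fewer cells of a type and less RNA per cell cannot be told apart.

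Among genes with a mean of at least 50 normalized reads, the 3 largest differences were those of transcription factors of pallial glutamatergic neurons. NEUROD2, which drives the maturation of cortical excitatory neurons, had 345 to 1208 normalized reads in the rich blocks (median 487), against 0 to 62.2 in the poor blocks (median 3.68). NEUROD6, a related factor, had 193 to 769 normalized reads in the rich blocks (median 507) and 1.23 to 47.8 in the poor blocks (median 5.76). BHLHE22, a repressor active in cortical projection neurons, had 128 to 376 in the rich blocks (median 219) and 0 to 21.5 in the poor blocks (median 2.98). None of the 3 genes overlapped between the groups, and in most poor blocks they lay at or near the level of 3 reads. The difference of mean log2(normalized reads + 1), rich minus poor, was 6.92 for NEUROD2, 6.07 for BHLHE22 and 5.86 for NEUROD6. With a pseudocount of 8 in place of 1 it was 5.36 for NEUROD2, 4.32 for BHLHE22 and 4.77 for NEUROD6, so its size depends on the pseudocount. For NEUROD2 the differences within cohorts 4, 7a and 7b were 8.08, 5.86 and 6.74.

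FEZF2, a factor of deep-layer cortical projection neurons, had 212 to 915 normalized reads in the rich blocks (median 405) and 16.9 to 167 in the poor blocks (median 42.6), a difference of 3.39. EMX1, a homeobox gene of the dorsal telencephalon, averaged 80.5 ± 32.8 in the rich and 2.10 ± 2.93 in the poor blocks, and NEUROD1 averaged 52.5 ± 22.0 in the rich and 3.06 ± 3.46 in the poor blocks (SD, n = 9 each). MEF2C, an activity-dependent factor, and LMO3, a LIM-only cofactor, are also active outside the pallium and stood 2.42-fold and 2.33-fold higher in the rich blocks, without overlap. Of 34 factors on the list of cortical and basolateral excitatory neuron transcription factors, 29 were in the table, and 25 other than TBR1 passed the filter on low values. The median difference of these 25 was 0.78, with 9 genes higher and 0 lower without overlap. Of all genes, 3.27% were higher and 1.11% lower without overlap.

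The list was not uniform. BCL11A stood at 145 ± 50.6 normalized reads in the rich and 335 ± 126 in the poor blocks. RORB, a marker of cortical layer 4, averaged 409.6 ± 61.3 in the rich and 465 ± 51.4 in the poor blocks, and PCP4, a marker of deep layers that striatal cells also carry, averaged 179.7 ± 44.1 in the rich and 384 ± 204 in the poor blocks. Among 26 tested cortical layer and basolateral amygdala genes, the median difference was 0.45, with 16 positive and 10 negative. The 2 genes without overlap, against 3.27% of all genes higher without overlap, were FEZF2 and RSPO2, a secreted Wnt agonist found in the basolateral amygdala of mice, and RSPO2 averaged 298 ± 93.7 in the rich and 95.2 ± 44.4 in the poor blocks. As 10 of the 26 genes had negative differences, the blocks are called TBR1-rich and TBR1-poor here and not cortical.

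Genes that load, release or respond to glutamate made up the next group. SLC17A6, the vesicular glutamate transporter VGLUT2, had 967 to 3909 normalized reads in the rich blocks (median 2004) and 13.49 to 1168 in the poor blocks (median 74.1), a difference of 4.28. The overlap came from LD replicate 7 alone (1168), since the next poor block held 614. The difference was 4.70 in cohort 4, 1.29 in cohort 7a and 4.34 in cohort 7b. SLC30A3, which loads zinc into glutamatergic vesicles, had 489 to 1399 in the rich blocks (median 959) and 9.63 to 83.7 in the poor blocks (median 27.3). Its lowest rich value was several times its highest poor value, and its difference was 4.70. The vesicular glutamate transporter SLC17A7 was not analysed here.

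NRN1 encodes neuritin, an activity-regulated protein of neurites, and had 1264 to 3450.5 normalized reads in the rich blocks (median 2358) against 54.0 to 351 in the poor blocks (median 93.7). BDNF, a neurotrophin made by excitatory neurons, had 165 to 609.5 in the rich blocks (median 390.4) and 15.8 to 73.9 in the poor blocks (median 33.8). Neither gene overlapped, and the differences were 4.26 for NRN1 and 3.50 for BDNF. Within cohorts 4, 7a and 7b they were 5.12, 2.85 and 4.01 for NRN1 and 3.74, 2.54 and 2.69 for BDNF. ENC1, an actin-binding protein of pyramidal neurons and by far the most read of these genes, averaged 27396 ± 8392 in the rich and 3616 ± 995 in the poor blocks. Per kilobase of exon it had 5689.8 normalized reads in the rich and 751 in the poor blocks, against 1532 and 93.6 for NRN1. NPTX2, a secreted pentraxin that clusters glutamate receptors, and the peptide CCK were 5.17-fold and 3.99-fold higher in the rich blocks without overlap.

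Of the 26 tested genes on the glutamatergic function list (30 members), 23 had positive differences and the median was 0.87. Of them, 10 were higher without overlap, against 3.27% of all genes. The exceptions show that not every gene linked with excitatory neurons followed TBR1. CAMKV (difference 0.01), VSNL1 (0.02) and PDE2A (−0.13) were nearly level. SLC17A8, the vesicular glutamate transporter of some cholinergic and interneuron types, averaged 64.5 ± 37.2 in the rich and 425 ± 582 in the poor blocks.

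**Figure D2:**
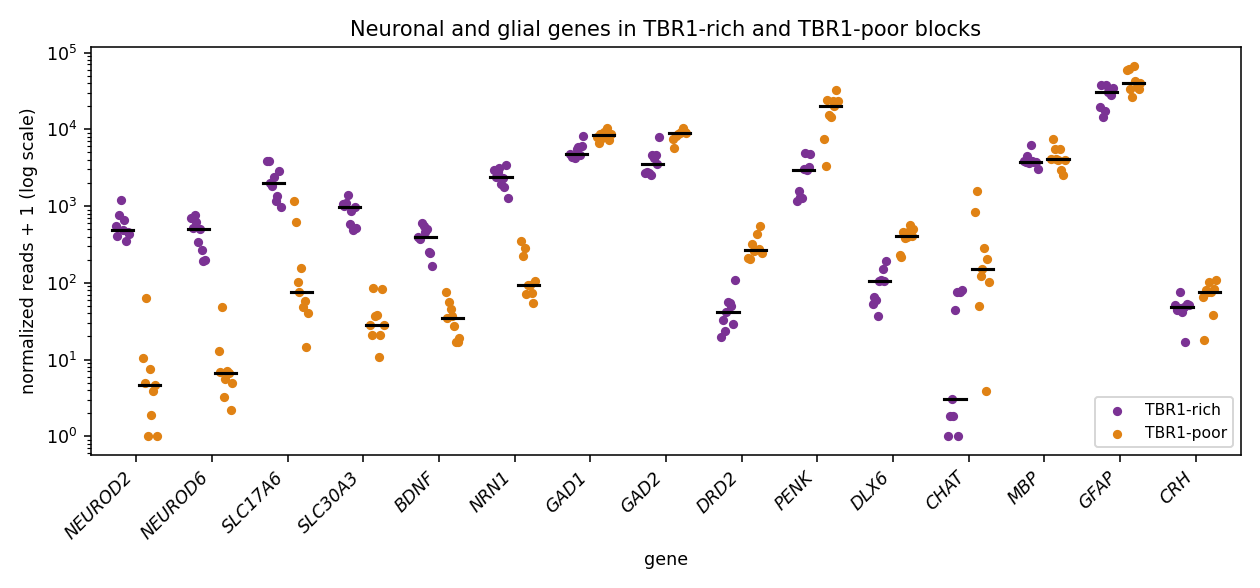
Normalized reads + 1 on a log axis for 15 genes, with 1 point per library, TBR1-rich blocks on the left and TBR1-poor blocks on the right of each gene, and a black line at the median. NEUROD2 medians are 487 in rich and 3.68 in poor blocks, DRD2 medians are 40.3 in rich and 264 in poor blocks, and MBP overlaps throughout.

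Other genes were among the 15 with the largest higher differences of those chosen for not overlapping. C1QL3, a secreted complement-like protein of excitatory synapses, had 2658 to 7825 normalized reads in the rich blocks (median 3741) and 88.4 to 454 in the poor blocks (median 151), a difference of 4.53. ADCYAP1, the precursor of the peptide PACAP, had 287 to 742 in the rich blocks (median 565) and 4.91 to 167 in the poor blocks (median 56.2). KCNV1, a silent potassium channel subunit that modifies others, averaged 1531 ± 605 in the rich and 156 ± 47.5 in the poor blocks. KITLG, the ligand of the receptor KIT, averaged 3584 ± 1301 in the rich and 391 ± 190.4 in the poor blocks, and LRMP, a membrane protein of the endoplasmic reticulum, 1136 ± 385 in the rich and 115 ± 20.9 in the poor blocks.

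PTER, a gene related to phosphotriesterases, ranked among them with 4872 ± 1998 normalized reads in the rich and 252 ± 146 in the poor blocks, but its reads lay almost wholly in 1 exon. Exon 5, on chromosome 10 from 16564589 to 16567272, held 4858 ± 1997 normalized reads in the rich and 238 ± 144 in the poor blocks. Its other 4 exons were level. Exon 2 had 6.22 ± 4.41 in the rich and 6.11 ± 3.55 in the poor blocks, and exon 3 had 4.67 ± 3.20 in the rich and 5.11 ± 5.30 in the poor blocks. Exon 5 of PTER ends at 16567272, inside the first exon by position of C1QL3, which starts at 16567270 on the same chromosome. The 2 gene models thus share only a few bases. Where the reads of exon 5 come from was not tested, so the PTER value is uncertain. TRIM51, a member of the tripartite motif family, averaged 171 ± 82.9 in the rich and 5.07 ± 3.70 in the poor blocks. Its first exon by position held 134 ± 65.2 in the rich and 3.89 ± 3.18 in the poor blocks and exon 2 averaged 34.7 ± 18.7 in the rich blocks, while the other 4 exons held hardly any reads. SERPINB13, a protease inhibitor known from skin, averaged 121 ± 78.2 in the rich and 2.31 ± 1.51 in the poor blocks, with reads in all 8 of its exons in the rich group.

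**Figure D3:**
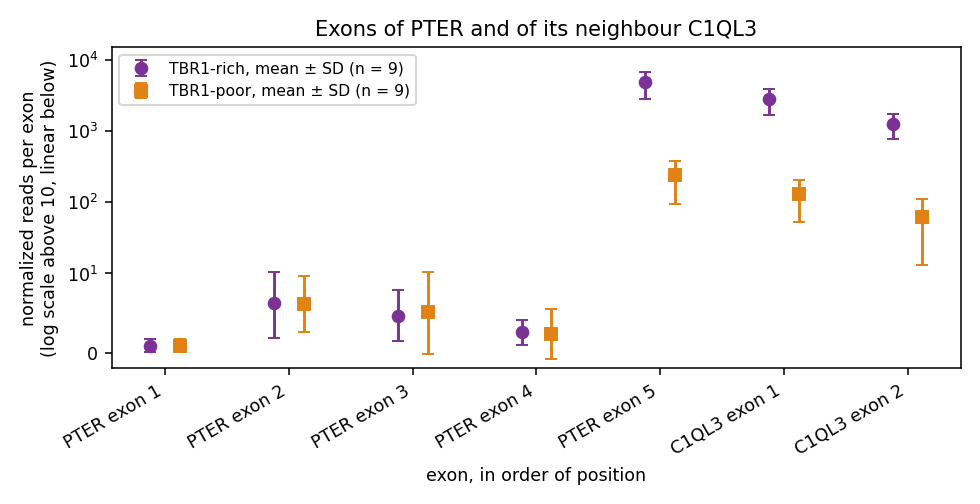
Normalized reads per exon, mean ± SD over 9 libraries, for the 5 exons of PTER and the 2 of its neighbour C1QL3 in TBR1-rich (circles) and TBR1-poor (squares) blocks, on an axis that is linear below 10 and logarithmic above. Exon 5 of PTER, with 4858 in rich and 238 in poor blocks, stands with the exons of C1QL3 and not with the other exons of PTER.

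Likeness to TBR1 was taken as Pearson's r of log2 values over the 28 libraries, which differ in depth and may differ in tissue make-up. The 10 genes most like TBR1 were PIRT (0.946), NRN1 (0.938), BDNF (0.932), CXXC5 (0.931), OXR1 (0.922), CA10 (0.920), PDZRN3 (0.914), KCNJ3 (0.914), FAM102B (0.912) and GRM2 (0.905). These r values include the 18 blocks that were ranked, and describe likeness only. PIRT, a regulator of TRP channels in sensory neurons of mice, had 372 to 921 normalized reads in the rich blocks (median 569) and 33.8 to 126 in the poor blocks (median 67.3). OXR1, an oxidation resistance gene, was the most read of the 10 and had 5822 to 11419.7 in the rich blocks (median 7271), against 1570.01 to 3899 in the poor blocks (median 2327). CA10, a carbonic anhydrase relative that binds neurexins, averaged 1807 ± 335 in the rich and 559 ± 250.3 in the poor blocks. None of the 10 overlapped between the groups, against 3.27% of all genes higher without overlap. They were chosen by likeness to TBR1 over the same blocks, so nothing is read from this count. Large differences did not always go with high r, which was 0.885 for NEUROD2, 0.736 for SLC30A3 and 0.598 for FEZF2.

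Receptors and channels divided by subunit. GRIN3A, an NMDA receptor subunit that lowers calcium entry, had 1385 to 4299 normalized reads in the rich blocks (median 2309) and 531 to 1258 in the poor blocks (median 626). GRM2, a metabotropic glutamate receptor of presynaptic terminals, had 136 to 266 in the rich blocks (median 198) and 40.3 to 101 in the poor blocks (median 67.5). These 2 of the 19 tested glutamate receptor genes did not overlap, against 3.27% of all genes higher without overlap. The median difference of the 19 was 0.07, with 12 positive. GRIN2A (difference 1.08) and GRIA3 (0.82) were higher with overlap, and GRIN2B was 0.26. Among 30 tested potassium and other voltage-gated channel genes, 24 were positive and the median was 0.33. Of them, 5 were higher without overlap, against 3.27% of all genes. KCNJ3, a subunit of G protein-gated GIRK channels, averaged 2691 ± 513 in the rich and 808 ± 230.3 in the poor blocks. KCNG1 and the small-conductance channel KCNN2 stood 2.23-fold and 1.99-fold higher without overlap. GABA-A receptor subunits had a median of 0.28 over 10 tested genes, and GABRA5 differed most, with 4265 ± 882 in the rich and 2141 ± 959 in the poor blocks and with overlap.

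Genes of GABAergic and striatum-like neurons ran the other way. DRD2, the D2 dopamine receptor, had 18.6 to 108 normalized reads in the rich blocks (median 40.3) and 202 to 556 in the poor blocks (median 264). It did not overlap, and its difference of −2.84 was the largest among lower genes without overlap and with a mean of at least 50 normalized reads (−2.85, −2.58 and −1.87 within cohorts 4, 7a and 7b). DRD1, the D1 receptor, did not share this direction, with 641 to 1436 in the rich blocks (median 999.6) and 286 to 1467 in the poor blocks (median 479). DLX6, a homeobox factor of forebrain GABAergic neurons, had 36.2 to 194 in the rich blocks (median 104) and 215 to 572 in the poor blocks (median 404). Its neighbour in the same family, DLX5, had 21.4 to 69.4 in the rich blocks (median 40.0) and 81.4 to 169 in the poor blocks (median 119). Neither overlapped, and both genes lie on chromosome 7 in the exon table. DLX1, which acts in the same neurons, averaged 189 ± 41.5 in the rich and 129 ± 55.4 in the poor blocks.

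The enzymes that make GABA were lower with overlap. GAD2 had 2528 to 7830.2 normalized reads in the rich blocks (median 3546) and 5698 to 10536 in the poor blocks (median 8941). GAD1 had 4183 to 8107 in the rich blocks (median 4822) and 6631 to 10471 in the poor blocks (median 8414). The differences were −1.19 for GAD2 and −0.66 for GAD1, and within cohort 7b they were only −0.23 and −0.02. Of 13 tested genes on the GABAergic list, 12 were negative and the median was −0.94. Of them, 2 were lower without overlap, against 1.11% of all genes. PENK, the enkephalin precursor, had 1161 to 4883 in the rich blocks (median 2974) and 3280.4 to 32856 in the poor blocks (median 20051). Of the 9 blocks with the most PENK, 7 were TBR1-poor and 0 were TBR1-rich. CRH, the stress peptide, averaged 46.6 ± 15.1 in the rich and 70.9 ± 28.9 in the poor blocks with wide overlap.

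Striatal medium spiny neuron genes had a median of −0.92, with 14 of 16 tested negative. GPR6, an orphan receptor of the striatum, averaged 20.9 ± 11.2 in the rich and 82.0 ± 53.2 in the poor blocks. The 29 genes of central amygdala peptides and receptors had a median of −0.23, with 20 negative. CRHR2, a receptor for urocortins, was an exception at 49.7 ± 19.4 in the rich and 7.94 ± 7.92 in the poor blocks. NTSR1, a neurotensin receptor, averaged 26.4 ± 16.3 in the rich and 116 ± 55.6 in the poor blocks. The 7 tested genes of intercalated cell masses had a median of −0.05.

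Interneuron genes split by subtype. PVALB, the calcium buffer of fast-spiking interneurons, had 38.5 to 203 normalized reads in the rich blocks (median 83.7) and 1.23 to 22.4 in the poor blocks (median 11.7), without overlap. VIP, a peptide of another interneuron class, had 96.3 to 168 in the rich blocks (median 112) and 12.3 to 75.1 in the poor blocks (median 35.9), also without overlap. SST went the other way at 928 to 2489 in the rich blocks (median 1364) and 2099.6 to 5457 in the poor blocks (median 3349), and TAC3 at 33.6 to 966 in the rich blocks (median 60.8) and 486 to 1421 in the poor blocks (median 873), both with overlap. Over the 16 tested genes the median was −0.05, with 4 higher and 0 lower without overlap. Of all genes, 3.27% were higher and 1.11% lower without overlap.

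The remaining genes came from the 15 with the largest lower differences of those chosen for not overlapping. COCH, which encodes the extracellular protein cochlin, had 345 to 734 normalized reads in the rich blocks (median 479) and 1107 to 2528 in the poor blocks (median 1596). COLQ, the tail that anchors acetylcholinesterase, averaged 66.3 ± 25.1 in the rich and 292 ± 146 in the poor blocks, and SV2C, a synaptic vesicle protein of the basal ganglia, 1149 ± 536 in the rich and 3012 ± 716 in the poor blocks. CAMK1G, a calcium and calmodulin-dependent kinase, averaged 688 ± 149 in the rich and 1819.6 ± 526 in the poor blocks. The others were SLITRK6, a transmembrane protein of neurites (difference −1.77), ANKRD34B (−1.73), BTG3, an antiproliferative protein (−1.45), MKX, a homeobox gene (−1.44), KCNK13, a potassium channel (−1.40), ATP7B, a copper transporter (−1.33), MYT1, a zinc finger factor (−1.28), and CARHSP1, an RNA-binding protein (−1.28).

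**Figure D4:**
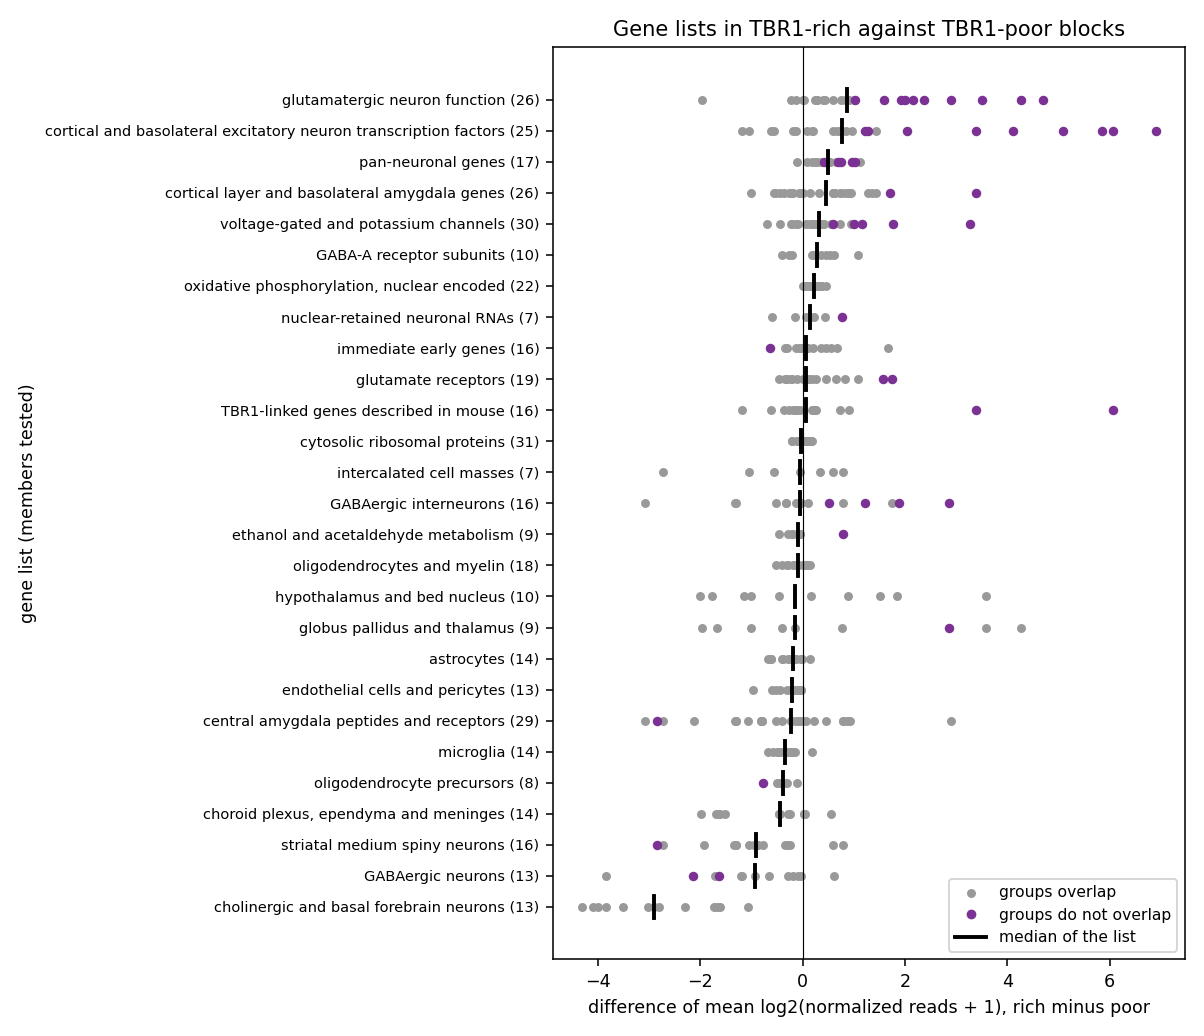
Difference of mean log2(normalized reads + 1), rich minus poor, for every tested member of 27 gene lists (1 point per gene, purple where the groups do not overlap), with a black bar at each list's median, sorted by it. Medians run from 0.87 for glutamatergic neuron function to −2.91 for cholinergic and basal forebrain genes.

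Among markers of tissue around the amygdala, those of the basal forebrain were lower in the rich than in the poor blocks. Their part in the differences was not tested. All 13 tested cholinergic and basal forebrain genes were lower in the rich blocks, with a median of −2.91. Of them, 0 were without overlap, against 1.11% of all genes lower without overlap. CHAT, which makes acetylcholine, had 0 to 78.8 normalized reads in the rich blocks (median 2.02, 2 of 9 libraries at 0) and 2.88 to 1566 in the poor blocks (median 151). ECEL1, a peptidase of basal forebrain neurons, had 10.1 to 401 in the rich blocks (median 40.1) and 373 to 2567 in the poor blocks (median 723). The list's median was −1.19 in cohort 4, −5.61 in cohort 7a and −0.98 in cohort 7b, and cohort 7a had a single poor block, LD replicate 7, with 826 normalized reads of CHAT. Of the 9 blocks with the most CHAT, 4 were TBR1-poor and 0 were TBR1-rich. The middle blocks held 8.11 to 1687 normalized reads of CHAT, the highest in VHD replicate 3, so CHAT did not fall evenly as TBR1 rose. Over 9 tested genes of the globus pallidus and thalamus the median was −0.15, and over 10 of the hypothalamus and bed nucleus it was −0.14. Both differed in sign between cohorts. Within cohorts 4, 7a and 7b the first was −0.22, 0.42 and −0.36, and the second 0.34, −1.67 and 0.68. Single genes there moved far, and LHX9, a factor of thalamic, hypothalamic and medial amygdala neurons, averaged 66.3 ± 56.7 in the rich and 4.78 ± 8.98 in the poor blocks.

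The summed level of 17 pan-neuronal genes was 198004 to 256724 normalized reads in the rich and 134004 to 176466 in the poor blocks, without overlap. Of these genes 16 were positive, and SNAP25, a protein of vesicle fusion, averaged 27794 ± 4879 in the rich and 13596 ± 1397 in the poor blocks. The summed level of 14 microglial genes was 4536 to 5559 in the rich and 5578 to 7489.5 in the poor blocks, so the sums only just cleared each other. Of these genes 13 were negative, with a median of −0.35. Taken singly, 0 of the 14 were lower without overlap, against 1.11% of all genes. All 13 tested endothelial and pericyte genes were negative (median −0.21), as were all 8 of oligodendrocyte precursors (median −0.38), where VCAN, a matrix proteoglycan, averaged 552 ± 117 in the rich and 935 ± 162 in the poor blocks. Astrocyte genes had 13 of 14 negative and a median of −0.19, and GFAP had 14636 to 38078 in the rich blocks (median 30227) and 26396 to 67144 in the poor blocks (median 40459). Of the 9 blocks with the least GFAP, 6 were TBR1-rich. The 18 myelin genes had a median of −0.09, and MBP averaged 4056 ± 883 in the rich and 4488 ± 1509 in the poor blocks. Between the rich and the poor blocks, the summed neuronal level was thus higher and the summed microglial level lower where TBR1 was high. The part of these sums in the differences of single genes was not tested.

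Choroid plexus, ependyma and meninges had a median of −0.45 over 14 genes, and TTR, a choroid plexus transcript, had 4.04 to 156 normalized reads in the rich blocks (median 30.7) and 15.1 to 1319 in the poor blocks (median 53.9). None of the 12 blood genes passed the filter on low values, and 6 were in the table. All 22 tested nuclear-encoded genes of oxidative phosphorylation were positive with a median of 0.21. Of them, 0 were without overlap, against 3.27% of all genes higher without overlap. COX5A, a subunit of cytochrome c oxidase, averaged 2597 ± 408 in the rich and 1901 ± 322 in the poor blocks. The median of this list was 0.43 in cohort 4, −0.06 in cohort 7a and 0.08 in cohort 7b. Immediate early genes had a median of 0.07 over 16 genes, but 0.06, 0.74 and −0.47 within cohorts 4, 7a and 7b. BTG2 alone was without overlap, at 41.7 ± 9.67 in the rich and 64.5 ± 5.71 in the poor blocks. Of all genes, 1.11% were lower without overlap. Cytosolic ribosomal proteins had a median of −0.03 over 31 genes, but 0.32, −0.24 and −0.25 within cohorts 4, 7a and 7b. Nuclear-retained neuronal RNAs had a median of 0.15 over 7 genes, and enzymes of ethanol and acetaldehyde metabolism −0.09 over 9. In the last list ALDH1A1, a retinaldehyde dehydrogenase, alone was without overlap, at 3505 ± 824 in the rich and 1997 ± 229 in the poor blocks. The share of all genes higher without overlap was 3.27%.

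Genes linked to TBR1 in studies of mice, as targets or partners in development, did not move as a group. Of 16 tested, 8 were positive and 8 negative, with a median of 0.07. BHLHE22 and FEZF2, already described, were the 2 without overlap, against 3.27% of all genes higher without overlap. RELN, a target in mouse cortex, averaged 6731 ± 1701 in the rich and 7089 ± 2369.8 in the poor blocks.

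The 10 middle blocks entered neither group, although the same ranking by TBR1 set them apart. Within them TBR1 spanned 1.59 log2 units of the 9.44 spanned by all 28 libraries. There, 0 of 13021 genes (0%) had a slope on log2(TBR1 + 1) past an adjusted p of 0.05 by limma, with 165 at an unadjusted p under 0.05 (459 without HD replicate 2), and edgeR also gave 0, with 181 unadjusted. Slopes were positive for 256 of the 426 higher genes (60.1%) against 48.0% of all genes, and negative for 76 of the 144 lower genes (52.8%) against 52.0% of all.

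DRD2 was among the 5 negative slopes with the smallest p, at −0.68 log2 units per log2 unit of TBR1 (95% interval −1.15 to −0.20; limma, adjusted p = 0.999). NRN1 had a slope of 0.38 (0.00 to 0.76), BDNF 0.58 (0.01 to 1.14) and PIRT 0.46 (−0.01 to 0.92), while NEUROD2 (0.47, −1.36 to 2.29) and SLC17A6 (0.71, −0.67 to 2.10) had wide intervals. Other negative slopes with a small p were those of C14orf105, QPRT and BTBD11, and the positive ones were those of ZSCAN31, DDX52, ACCS, NHSL1 and NRIP3, all with an adjusted p of 0.999 by limma. Between rich and poor blocks, DDX52, ACCS and NHSL1 went the other way and averaged lower in the rich, while ZSCAN31 and NRIP3 averaged higher. Several lists had other directions in the middle blocks than between rich and poor. Slopes were positive in 3 of 22 oxidative phosphorylation genes and in 6 of 17 pan-neuronal genes, and in 18 of 18 myelin genes. Of the 13 GABAergic genes, 0 had a positive slope, against 1 with a positive difference between rich and poor.

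The study compares drinkers, so TBR1 was also entered beside cohort as a term in the comparison of heavy with low drinkers over all 28 libraries. Cohort 5 holds heavy drinkers only and adds to the spread and to the TBR1 slope, not directly to the drinking difference. In cohort 4 the only heavy drinker is HD replicate 1, and in cohort 7b it is HD replicate 7. The remaining heavy drinkers that inform the difference are all of cohort 7a. With TBR1 as a term, 0 of 13021 genes (0%) passed an adjusted p of 0.05 by limma, with 754 at an unadjusted p under 0.05 (273 without HD replicate 1) and a lowest adjusted p of 0.846, and edgeR gave 0 with 789 unadjusted. Without it, limma gave 0 (0%) with 544 unadjusted (284 without HD replicate 1 and 892 without LD replicate 1). The median width of the 95% interval over all genes was 0.522 log2 units with the term and 0.550 without it.

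Genes that follow TBR1 across the same libraries have narrower intervals with the term by construction, so nothing is read from their widths. The interval of NRN1 was 1.40 wide with the term and 3.46 without, and that of BDNF 1.17 with and 2.80 without. The heavy minus low difference of NRN1 was −0.15 (95% interval −0.85 to 0.56) with the term and 0.46 (−1.27 to 2.19) without it, and that of SLC17A6 was 0.01 (−1.02 to 1.05) with and 0.67 (−1.34 to 2.69) without. GAD2 was −0.40 (−0.80 to −0.01; limma, adjusted p = 0.846) with the term and −0.54 (−1.07 to −0.01; adjusted p = 0.998) without it, and PENK was −0.89 (−1.80 to 0.02) with and −1.26 (−2.58 to 0.06) without. The 5 higher genes with the smallest p beside the TBR1 term were CDKAL1, a tRNA-modifying enzyme (0.30, interval 0.16 to 0.45), GLT25D2, ZNF792, WDR52 and ARFGEF1. The 5 lower ones were MGMT, a DNA repair enzyme (−0.44, −0.68 to −0.20), THAP3, MRPL13, NDUFAF2 and CD93, each with an adjusted p of 0.846 by limma. Without the term CDKAL1 was 0.30 (0.16 to 0.44) and MGMT −0.40 (−0.66 to −0.14).

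**Figure D5:**
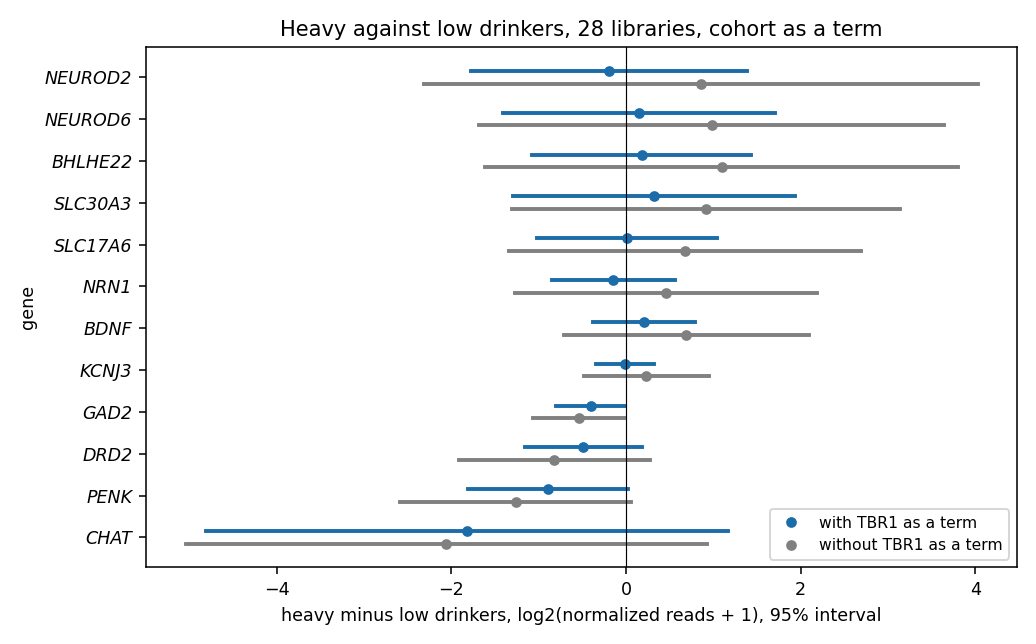
Fitted difference of heavy minus low drinkers in log2(normalized reads + 1) with its 95% interval for 12 genes, with TBR1 as a term (blue, upper) and without it (grey, lower), over 28 libraries with cohort as a term. The interval of NRN1 is 1.40 wide with the term and 3.46 without it, and that of CHAT hardly narrows.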

How the data were processed

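Total RNA of 28 labelled libraries was analysed, with a stranded protocol after removal of ribosomal RNA, per the labels' protocols. CASAVA, FastQC, STAR 2.3.0e and edgeR are named in the submitters' processing notes, and no genome build is given in the sources used here. The gene table deposited by the authors holds a signal, reads over exons scaled to each library's upper quartile. Divided by the smallest step of its column, 100% of values came within 0.02 of a whole number, so reads could be recovered. The exon table deposited by the authors holds a score, the same quantity rounded to whole numbers per exon. Of 30 columns, 2 were not used here. Whether the animals' libraries differ by more than technical spread cannot be separated with 1 library each.

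Libraries were ranked by TBR1. Genes with at least 10 normalized reads in at least 5 libraries were kept and compared on log2(value + 1), so fold changes are on that scale and understate changes of low genes. Expression in rich and poor was compared without a test, and their make-up by drinking and cohort with Fisher's exact test. limma 3.58.1 (R 4.3.3, trend, two-sided, Benjamini-Hochberg over all tested genes, threshold 0.05) gave the TBR1 slope in the 10 middle libraries, and heavy against low drinkers with cohort and with or without TBR1. edgeR 4.0.16 (quasi-likelihood) was run on recovered reads, and the scripts were tested on simulated data. Alternatives were other pseudocounts, filters and scalings, smaller groups, cohort centring and leaving out libraries.

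Blocks, gene lists, tests and the naming rule were chosen with earlier results of these data known. The rule took genes with a mean of at least 50 normalized reads over the rich and poor blocks: the 15 largest differences per direction among those without overlap, up to 4 members per list, 5 per direction for each fit, and 10 most like TBR1. Defining markers (SLC17A6, GAD1, GAD2, PENK, CHAT, MBP, GFAP and CRH among them) were named in every case. Some genes chosen this way are not reported here. EMX1, NEUROD1, MEF2C, LMO3, ENC1, NPTX2, CCK, CAMKV, VSNL1, PDE2A, SLC17A8, RORB, PCP4, DLX1, GRIN2B, LHX9, RELN and CRHR2 were named after their values were seen. A planned search of promoters for a T-box motif was not made, since no promoter sequence was used here.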

Additional observations from a re-analysis of the deposited data

Results flagged for a closer look

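Within the rich and the poor group, 92 groups of 9 values (46 genes) were checked for a library far from the other 8, on the log2 scale by Dixon's test at the 95% level, which flags about 1 group in 20 by chance. It marked 4. ADCYAP1 stood at 4.91 normalized reads in LD replicate 8, a poor block, against 35.9 to 167 in the other poor blocks. ATP7B stood at 48.1 in BD replicate 1, a rich block, against 94.9 to 167 in the other rich blocks, and at 763 in LD replicate 1, a poor block, against 206 to 294 in the others. CRH stood at 16.03 in BD replicate 1, against 40.0 to 74.8 in the other rich blocks. BD replicate 1 is the shallowest library, in which 3 reads correspond to 24.1 normalized reads, so these low values rest on few reads.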

How the results depend on the processing

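Of 426 genes higher and 144 lower without overlap, 416 and 148 were counted with TMM-scaled reads. The number of blocks and the centring moved the counts by more than 1.5 times: the 5 highest against the 5 lowest blocks gave 1460 higher and 1426 lower, and values centred on cohort means gave 173 higher and 42 lower. Leaving out 1 library gave 427 to 546 higher and 146 to 275 lower genes, so the lower count could also move by more than 1.5 times. Fewer libraries can only add genes without overlap. The counts of genes past the threshold in the middle blocks and between heavy and low drinkers with TBR1 as a term stayed at 0 under each alternative run, 0 to 0 when 1 library was left out. The TBR1 difference between heavy and low drinkers was 0.64 to 1.50 when 1 library was left out.

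Of 3375 rich minus poor values of 125 genes under the alternatives, 1 changed sign: MBP was 0.24 with the 5 highest and 5 lowest blocks. Of 729 list medians, 21 changed sign, in 7 lists whose medians lay near 0. With 5 against 5 blocks they were 0.16 for GABAergic interneurons, 0.31 for intercalated cell masses, 0.0122 for globus pallidus and thalamus, 0.21 for myelin and −0.0689 for immediate early genes. With a filter of 50 normalized reads they were 0.88 for hypothalamus and bed nucleus and 0.31 for globus pallidus and thalamus, where fewer genes were tested, and without the 3 shallowest libraries −0.0029 for immediate early genes. The cause was not tested. When 1 library was left out, medians ranged from −0.092 to 0.0653 for GABAergic interneurons, −0.1591 to 0.0911 for intercalated cell masses, −0.1668 to 0.0006 for myelin, −0.1034 to 0.0029 for ribosomal proteins, −0.3286 to 0.0771 for hypothalamus and bed nucleus and −0.0328 to 0.1745 for immediate early genes. No paired analysis was possible because the replicate numbers only name the libraries and pair no animals. Depth limits the genes near 0 in the poor blocks, where single reads decide the value.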
